A study of Mus musculus with 63 samples.

Results

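The proteasome subunit genes of mouse B-cell lymphomas are described here in 63 microarrays. The members are the genes whose symbol begins with Psma, Psmb, Psmc, Psmd, Psme, Psmf or Psmg followed by a digit, each read from its probe set of highest mean. The rule found 50 genes of 19938 with a probe set of their own symbol. Of these, 48 code for proteasome subunits, caps or assembly factors, while Psmc3ip and Psme3ip1 meet the rule by spelling and code for other proteins. The lymphomas came from lymph nodes of Eµ-myc mice on a C57BL/6 background, in which an immunoglobulin enhancer drives Myc in the B lineage, so every array carries that transgene. RNA was taken from the lymphoma cells directly, with no purification or culture, and treated mice were recipients of transplanted primary lymphomas with an intact immune system. The treated group is labelled CTX 4h (31 arrays, cyclophosphamide, an alkylating drug, 4 hours), with an injected dose of 300 mg/kg stated for 29 of them. The other 32 arrays are labelled native, meaning without therapy. The design text speaks of untreated samples alone, so the treatment of the 31 arrays rests on the array labels. The labels do not tie any array of one group to an array of the other, nor say that the arrays come from separate mice, so the p-values speak only of the scatter among the arrays at hand, which may be partly technical. Ages are not given in the labels.

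The proteasome degrades proteins marked with ubiquitin. Its 20S core is a barrel of alpha rings, which gate the entrance, around beta rings that hold the catalytic sites of Psmb5 (chymotrypsin-like), Psmb6 (caspase-like) and Psmb7 (trypsin-like). In cells of the immune system and after interferon gamma, Psmb8, Psmb9 and Psmb10 take the places of Psmb5, Psmb6 and Psmb7, which forms the immunoproteasome and changes the peptides made for MHC class I. The 19S cap binds and unfolds substrates, the caps built from Psme1 to Psme4 open the core without it, and dedicated chaperones assemble both.

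The members comprised 8 alpha ring genes, 3 constitutive and 3 immune catalytic genes, the thymic catalytic gene Psmb11, 4 structural beta ring genes and 4 chaperones of the 20S core. To these came 6 ATPases, 11 non-ATPase subunits and 3 chaperones of the 19S cap, 4 activator caps, the inhibitor Psmf1 and the 2 genes of other function. The second Psme2 gene, Psme2b, shared its probe set with another symbol and was not counted. No filter on low values was used in the main fits, so all 50 entered them. An alternative treatment fit kept only genes above the median mean, with 48 members. Psma8, the alpha subunit of the testis, and Psmb11, made in thymic epithelium, were dim, with mean log2 values of 5.33 and 5.94 at or above those of 16.3% and 27.2% of genes. Several probe sets existed for 5 members (Psma3, Psma5, Psmb3, Psmc1 and Psmd2), and the others correlated with the chosen one at r of 0.89 to 0.99 over native arrays.

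The promoters of 4 catalytic genes are shown because these genes behaved differently across the arrays described below. The windows end at the base before the gene's start in the RefSeq promoter table (GRCm38.p6) and leave out bases inside neighbouring genes. Psmb5 lies on chr14:54617996-54618115 (minus strand), Psmb8 on chr17:34198075-34198194 (plus), Psmb9 on chr17:34187331-34187555 (minus) and Psmb10 on chr8:105938393-105938518 (minus). Capitals mark TGACNNNGC, the core of the antioxidant response element, in Psmb5, TTCNNNGAA, the gamma-activated site, in Psmb8, and the E-box CACGTG in Psmb10.
Psmb5: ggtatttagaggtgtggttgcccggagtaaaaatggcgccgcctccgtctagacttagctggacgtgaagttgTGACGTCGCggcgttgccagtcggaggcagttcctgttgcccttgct
Psmb8: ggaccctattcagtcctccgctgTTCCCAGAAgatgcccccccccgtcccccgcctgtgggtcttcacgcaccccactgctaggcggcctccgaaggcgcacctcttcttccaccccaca
Psmb9: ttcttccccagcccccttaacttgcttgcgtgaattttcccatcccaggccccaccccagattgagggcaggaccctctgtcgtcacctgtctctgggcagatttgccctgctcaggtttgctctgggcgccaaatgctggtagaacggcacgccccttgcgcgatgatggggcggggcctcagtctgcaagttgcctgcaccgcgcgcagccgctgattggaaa
Psmb10: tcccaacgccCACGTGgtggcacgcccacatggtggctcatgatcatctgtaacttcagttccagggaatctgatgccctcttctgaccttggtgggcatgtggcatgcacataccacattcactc
The Psmb9 window is the whole stretch of 225 bases between its start and that of Tap1, the peptide transporter gene that runs the other way, and it held none of the 4 motifs searched.

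The 4 motifs were searched on both strands in the 250 bases before the start of the 42 members in that table. TGACNNNGC was found in 5 members (Psmb5, Psmb6, Psmc6, Psmd12 and Psmd9), 11.9% of the 42, against 11.5% of 27025 genes. CACGTG was found in 5 members (Psma4, Psmb10, Psmd9, Psme3 and Psme3ip1), also 11.9%, against 6.86% of genes. The interferon-stimulated response element (GAAA, any 2 bases, GAAA) was found in 3 members (Psmb3, Psmd4 and Psmd9), 7.14% against 3.46% of genes. TTCNNNGAA was found in 2 members (Psmb8 and Psmg1), 4.76% against 8.13% of genes. These counts are descriptions of the letters in the windows.

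Some arrays stood apart over the whole genome, which bears on every result below. RNA input was 100 ng for 29 treated and 15 native arrays and 300 ng for 2 treated and 17 native arrays. The lymphoma number in the title starts with 1, 8 or 9, and at 100 ng the numbers starting 1 held 6 treated and 7 native arrays, those starting 8 held 9 and 3, and those starting 9 held 14 and 5. These 3 groups and the 300 ng arrays are called sets. The labels do not say what the first digit stands for. Native replicate 8 (100 ng, number starting 9) and native replicate 19 (300 ng) had log2 Myc values of 11.39 and 10.64, against at least 12.36 in the other arrays. Array medians ran from 6.53 to 7.11, and native replicate 8 had the highest. The B-cell markers Cd79a and Cd79b were present, with lowest native log2 values of 8.38 and 12.38.

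Cyclophosphamide left no member changed past the threshold. The constitutive catalytic genes were as high in treated as in native lymphomas within the spread, and so were Psmb8 and Psmb9. Psmb10 had the largest difference among the catalytic genes, -0.24 ± 0.14 (SE) on the log2 scale, and it did not pass the test. For Psmb5 the native arrays had a lowest log2 value of 10.56, a median of 12.65 and a highest of 13.64, and the treated arrays 11.94, 12.50 and 13.25. The treated range lay wholly inside the native range. The fitted difference for Psmb5 was -0.13 ± 0.14, with an adjusted p of 0.641 in limma with Benjamini-Hochberg adjustment, and 13 of 31 treated arrays were above the native median.

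Psmb6 ran from 8.88 through a median of 10.79 to 11.48 in native arrays and from 10.37 through 10.78 to 11.74 in treated arrays (log2). Psmb7 ran from 8.49 through 10.72 to 11.44 and from 10.12 through 10.60 to 11.57. In both genes the groups overlapped over nearly the whole treated range, and the lowest values were those of the native arrays of low Myc. Among the immune subunits, Psmb8 ran from 9.64 through 10.68 to 11.24 in native and from 9.66 through 10.69 to 11.11 in treated arrays. Psmb9 ran from 9.66 through 10.21 to 10.80 and from 9.45 through 10.07 to 11.03. Both groups of each gene covered almost the same range. Psmb10 ran from 8.61 through 9.99 to 11.12 in native and from 9.40 through 9.85 to 11.16 in treated arrays, with 10 of 31 treated arrays above the native median. Its adjusted p was 0.384 in limma.

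**Figure D1:**
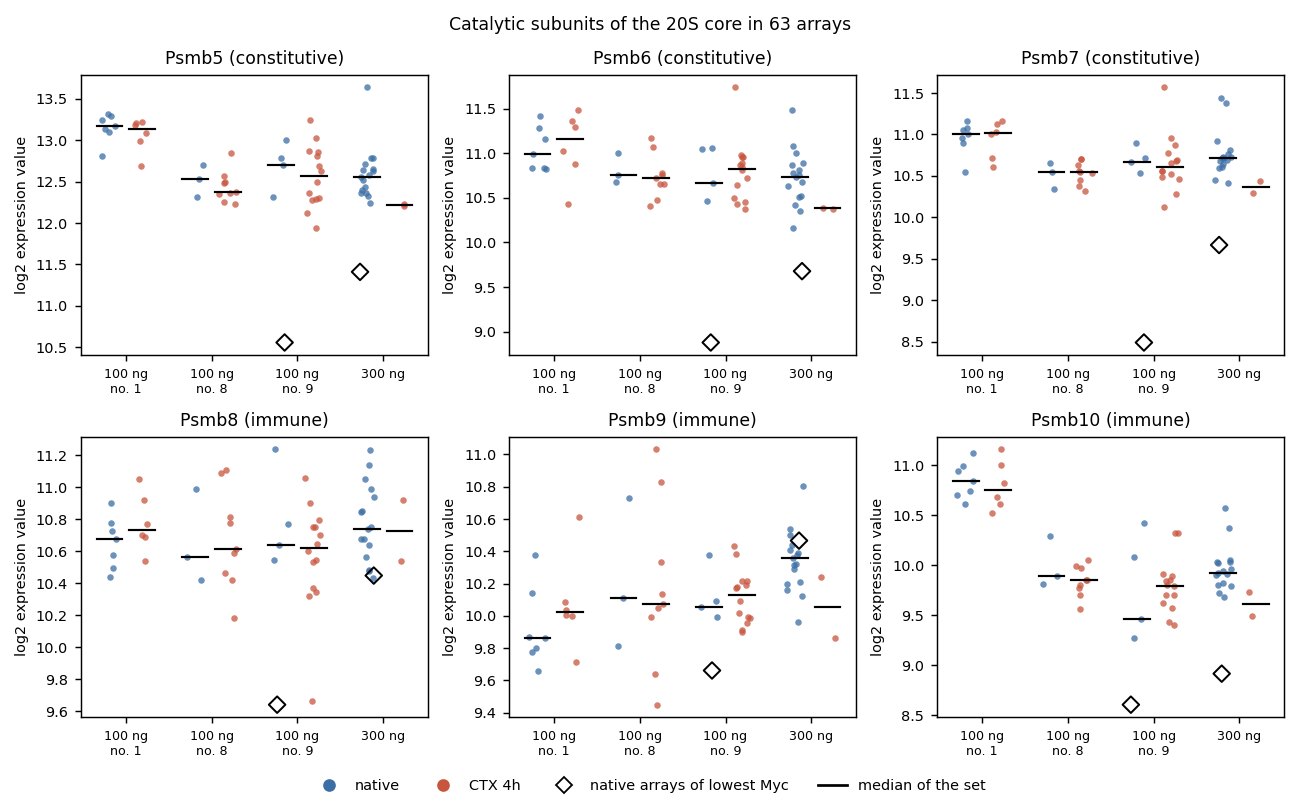
Log2 expression values of the 6 catalytic genes in each array (points), by set on the x axis (RNA input and first digit of the lymphoma number) and by group (colour), with the median of each set and group as a line and the 2 native arrays of lowest Myc as diamonds. In the 100 ng arrays with numbers starting 1, Psmb10 was at least 10.53 in both groups, and the diamonds lay below all the other arrays for Psmb5, Psmb6, Psmb7 and Psmb10.

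Over all members, 0 of 50 were higher and 0 were lower in treated lymphomas at an adjusted p under 0.05, where 1.41% of all genes were higher, 1.26% lower and 2.67% changed either way in limma. At an unadjusted p under 0.05 the count was also 0 of 50, against 3484 of 19938 genes. The median difference of the members was -0.04 and that of all genes -0.01, with 17 members positive and 33 negative. The largest positive difference was that of Psma7, an alpha ring gene, at 0.17 ± 0.15, and the largest negative one that of Psme3, the nuclear PA28 gamma cap, at -0.32 ± 0.19. The 95% intervals of all members in this fit lay between -0.70 and 0.47, so a change beyond 0.70 (log2) was outside every interval. This bound holds for this fit over all arrays and not for the other settings below.

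By role, the alpha ring had 6 of 8 differences above 0 (median 0.06) and the structural beta ring 2 of 4 (median 0.00), with Psmb4 at 0.14 ± 0.12 and Psmb2 at -0.18 ± 0.13. The ATPases had 1 of 6 above 0, with Psmc1 at 0.07 ± 0.13 and Psmc4 at -0.16 ± 0.14. The non-ATPase subunits had 4 of 11 above 0, from Psmd3, a scaffold of the lid, at -0.18 ± 0.17 to Psmd4, a ubiquitin receptor, at 0.10 ± 0.08. The 3 chaperones of the 19S cap were all below 0, from Psmd5 at -0.13 ± 0.14 to Psmd9 at -0.01 ± 0.08. Of the 20S chaperones, Psmg2 was at -0.29 ± 0.16 and Psmg4 at 0.10 ± 0.15. The 4 caps were below 0, and Psme1 and Psme2, the interferon-inducible PA28 alpha and beta, were nearest to it at -0.03 ± 0.09 and -0.02 ± 0.08. The inhibitor Psmf1 was at -0.24 ± 0.16. None of these differences passed the test, and the smallest adjusted p in limma was that of Psmg2 (0.329).

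Psme3 had a lowest, median and highest log2 value of 9.28, 11.62 and 12.99 in native and of 11.02, 11.39 and 12.83 in treated arrays. Psmg2 had 8.03, 10.17 and 11.01 in native and 9.22, 9.88 and 10.98 in treated arrays. The treated arrays of both genes lay inside the native range, with 10 and 11 of 31 above the native median. Psme1 ran from 9.79 through 10.89 to 11.39 in native and from 10.33 through 10.85 to 11.51 in treated arrays, and Psme2 from 10.72 through 11.67 to 12.34 and from 11.05 through 11.69 to 12.17. The groups of both PA28 genes overlapped over nearly their whole ranges.

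Both the low-Myc arrays and the first digit moved this result. Without native replicates 8 and 19, Psme3 (-0.49 ± 0.16, adjusted p = 0.0328) and Psmg2 (-0.44 ± 0.12, adjusted p = 0.0148) were lower in treated lymphomas by limma, 2 of 50 members, where 8.31% of all genes were lower and 4.2% higher. With limma array weights, 21 members were lower, where 18.4% of genes were lower and 10.8% higher (29.2% either way). Without native replicate 8 alone, Psmg2 was lower (-0.43, adjusted p = 0.0414 in limma), where 5.19% of genes were lower and 2.76% higher (7.95% either way). At 100 ng, numbers starting 1 made up 7 of 15 native but 6 of 29 treated arrays, and with the first digit as a term and both low-Myc arrays left out, 0 of 50 passed, with Psme3 at -0.20 (adjusted p = 0.238 in limma) and Psmg2 at -0.33 (adjusted p = 0.118), where 1.46% of genes were lower and 1.07% higher (2.53% either way). Array weights with the first digit as a term called Psmg2 alone of the members (-0.33, adjusted p = 0.0467 in limma), where 3.26% of genes were lower and 2.15% higher (5.4% either way). With a small nucleolar RNA score as a term, the differences of Psmb10 and Psme3 turned to 0.11 and 0.14, neither past the threshold.

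Within the sets the median difference of the members was 0.01 for numbers starting 1 (29 of 50 positive), -0.06 for numbers starting 8 (12 positive), 0.30 for numbers starting 9 (43 positive) and -0.28 at 300 ng (2 positive, 2 treated arrays). Without the low-Myc array of each, the median was -0.05 for numbers starting 9 (13 positive) and -0.35 at 300 ng (2 positive). The sign of the members' median thus differed between sets and turned with 1 array. Psma5, Psmb11, Psmd10 and Psmg3 were negative in all 4 sets, and 0 members were positive in all, where 2 at most could be, given the 300 ng set. The share of all genes with the same sign in all 4 sets was not computed, so these counts have no background.

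**Figure D2:**
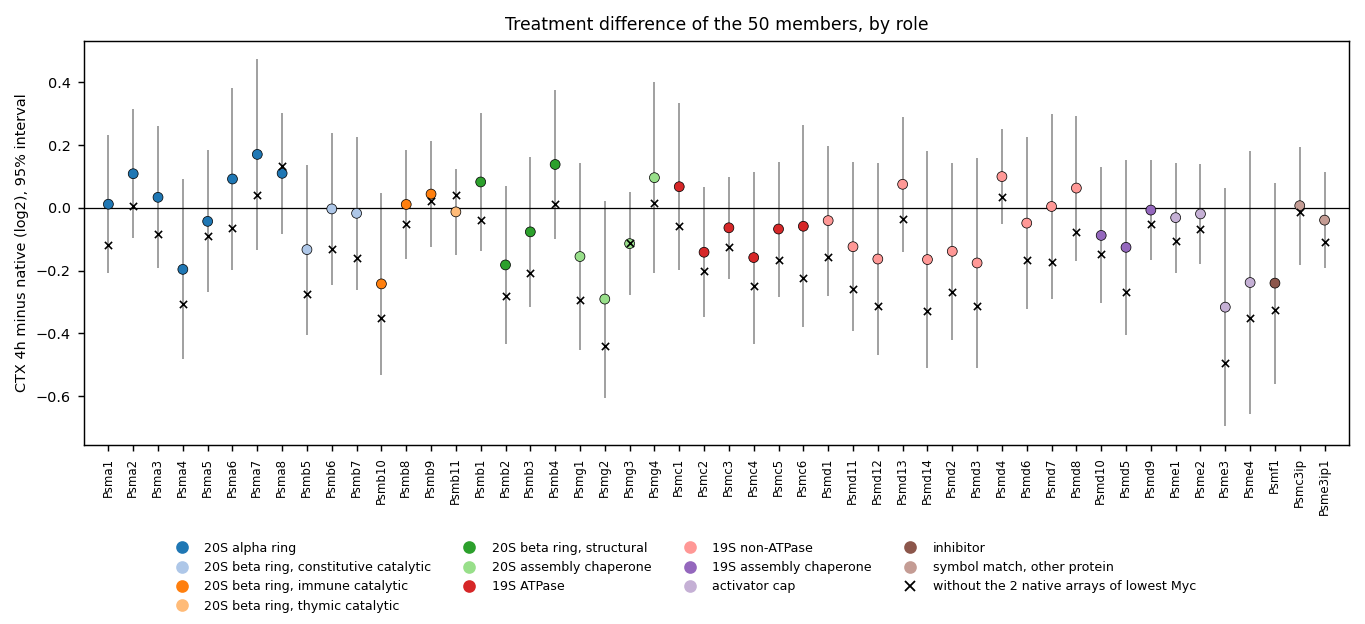
Treatment minus native difference (y axis, log2) of each member with its 95% interval, coloured by role, and the same difference without the 2 native arrays of lowest Myc (crosses). All intervals over the 63 arrays included 0, and the crosses lay below the points for most members, with Psme3 and Psmg2 lowest.

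The exchange of catalytic subunits was followed as the log2 difference between each immune gene and the constitutive gene whose place its product takes, within an array. Psmb8 minus Psmb5 ran from -2.88 through a median of -1.90 to -0.92 in native and from -2.68 through -1.99 to -1.29 in treated arrays. Psmb9 minus Psmb6 ran from -1.62 through -0.54 to 0.79 and from -1.72 through -0.65 to 0.38. Psmb10 minus Psmb7 ran from -1.41 through -0.73 to 0.57 and from -1.25 through -0.76 to 0.44. The groups overlapped throughout in all 3 pairs. Since each gene is read by another probe set, these levels show no ratio of the 2 products, and only their change between groups is compared. The change between treated and native arrays was 0.14 for Psmb8 minus Psmb5, 0.05 for Psmb9 minus Psmb6 and -0.23 for Psmb10 minus Psmb7. A two-sided permutation test within RNA input gave p = 0.263, 0.746 and 0.0569 (adjusted over the 3 pairs, 0.395, 0.746 and 0.171). Within RNA input and first digit the changes were 0.03, -0.06 and -0.10, with p = 0.81, 0.665 and 0.298 by permutation. The native arrays of low Myc held the highest values of the first 2 differences, -0.92 and -0.96 for Psmb8 minus Psmb5 and 0.78 and 0.79 for Psmb9 minus Psmb6.

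RNA input also left the members uncalled. Between 300 and 100 ng arrays 0 of 50 members passed, where 0.145% of genes were higher and 0.015% lower at 300 ng in limma, and 8 members (16%) had an unadjusted p under 0.05, as did 16.6% of all genes. The smallest adjusted p was that of Psma4, an alpha ring gene, at -0.45 ± 0.16 (0.139), followed by Psmb9 at 0.25 ± 0.09 (0.163). With quantile normalization Psma4 passed (-0.38, adjusted p = 0.0336 in limma). All arrays of numbers starting 1 are at 100 ng, however, and with the first digit as a term Psma4 was at -0.07 (adjusted p = 0.868 in limma), the members' median went from -0.16 to 0.05, and 0 members had an unadjusted p under 0.05. The treatment difference did not differ between RNA inputs past the threshold in any member (0 of 50, against 0.0201% of genes in limma, 0.015% upward and 0.00502% downward; 0 members and 1090 genes at an unadjusted p under 0.05), with 2 treated arrays at 300 ng. The spread within treated and within native arrays at 100 ng differed in 0 of 50 members and in 0% of genes in limma, and 1 member and 421 genes had an unadjusted p under 0.05.

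Over all native arrays the members had a larger median spread than all genes. The SD over the 32 native arrays had a median of 0.50 in the members and 0.32 in all genes, which were not matched to the mostly bright members for level. Psme4, the PA200 cap, and Psme3 varied most, with SDs of 0.77 and 0.76, followed by the deubiquitinase Psmd14 (0.71), the ATPase Psmc6 (0.66) and the chaperone Psmg2 (0.64). Psmb11 (0.23), Psme3ip1 (0.29), Psmd9 (0.29), Psmb9 (0.29) and Psme2 (0.29) varied least. The immune subunits were split, with Psmb9 and Psmb8 at 0.29 and 0.30 and Psmb10 at 0.57, beside 0.56, 0.49 and 0.51 for Psmb5, Psmb6 and Psmb7.

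The spread was smaller once the arrays that stood apart were set aside. Without the 2 low-Myc arrays the median SD was 0.31 in the members and 0.26 in all genes, and around the mean of each set it was 0.26 and 0.22. Psme3 went from 0.76 to 0.55 and 0.28 in this way, Psmd14 from 0.71 to 0.48 and 0.30, and Psmb10 from 0.57 to 0.47 and 0.27. Around the set means Psmb8 and Psmb9 were both at 0.24, close to Psmb10, and with quantile normalization over all 32 arrays Psmb9 (0.41) had a larger SD than Psmb10 (0.38). Psme4 kept an SD of 0.74 and 0.63. Its highest native value was 12.80, in native replicate 9, and the next was 11.89.

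**Figure D3:**
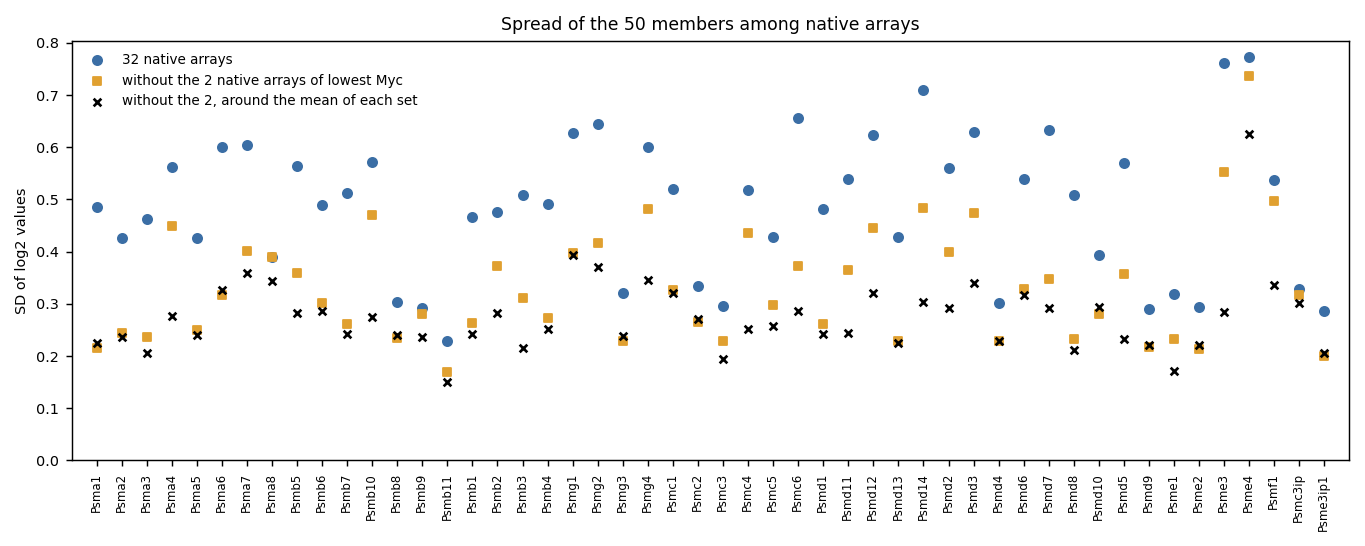
SD of the log2 values of each member (y axis) over the 32 native arrays (circles), without the 2 arrays of lowest Myc (squares) and around the mean of each set without those 2 (crosses). For Psmd14 the 3 values were 0.71, 0.48 and 0.30, while Psme4 stayed above 0.6.

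In native replicates 8 and 19 nearly the whole proteasome was low together. They were the 2 lowest of the 32 native arrays in 40 of 50 members (80%), against 17.9% of all genes. Among the constitutive core and cap subunits without Psma8 this held for 30 of 31, Psmd4 being the exception. The median member was at -1.73 from its native median in replicate 8 and at -1.12 in replicate 19 (log2), while the median gene was at 0.12 and 0.09. Psmd14, for example, read 9.37 and 9.78 in these arrays and at least 11.11 in the other native arrays. Psmb7 read 8.49 and 9.66, against at least 10.34. In both genes the pair lay below all the other native arrays. Most members are bright, and the values over all genes were not matched to them for level. The dim Psma8 and Psmb11 were at 0.44 and 0.93 from their native medians in replicate 8, and at -0.35 and 0.14 in replicate 19. These 2 arrays also had the lowest mean correlation to the other arrays (0.904 and 0.929, against at least 0.938). How far the low values are particular to the proteasome was not tested.

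The immune subunits differed among themselves in those arrays. Psmb10 followed the constitutive genes, at 8.61 and 8.92 against at least 9.27 in the other native arrays. Psmb8 was low in replicate 8 (9.64) and within the range of the others in replicate 19 (10.45). Psmb9 was 9.66 in replicate 8, level with the lowest other native array, and 10.47 in replicate 19, above the native median of 10.21. The genes of MHC class I processing were divided too, with 10 of 11 below their native median in replicate 8 and 4 in replicate 19. The transporter Tap1 read 9.80 and 10.90 and beta-2-microglobulin (B2m) 12.86 and 13.73, the latter the highest native value, while Erap1 (8.58 and 8.64), Canx (11.55 and 12.08) and Pdia3 (10.20 and 10.70) were below all the other arrays. With both arrays centred on a common median, the members' shifts were -1.93 and -1.25. The pair was then lowest in 41 members (82%), against 21.2% of genes. With quantile normalization the shifts were -0.70 and -0.74, and 27 members (54%) had the pair lowest, against 11.5% of genes.

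T-cell markers were high and B-cell markers low in both of these arrays. All 9 T-cell markers were above their native median in replicate 8 and in replicate 19. Of 7 B-cell markers, 7 were below their native median in replicate 8 and 6 in replicate 19. The macrophage markers differed between the arrays, with 7 of 11 below the native median in replicate 8 and 3 in replicate 19, and of 8 stromal and endothelial markers 6 and 4 were below it. The mean log2 level of 11 macrophage markers was 8.49 in replicate 8, second lowest of the native arrays, and 9.53 in replicate 19, the highest, and the other native arrays ran from 8.47 to 9.37. The mean of 9 T-cell markers was 8.33 and 8.96, against 6.39 to 10.02 in the other native arrays. The mean of 7 B-cell markers was 10.44 and 11.18, against 9.96 to 12.09. The part of cell content and of RNA quality in the low values was not tested. In bulk tissue, fewer cells of a type and less RNA per cell cannot be told apart.

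**Figure D4:**
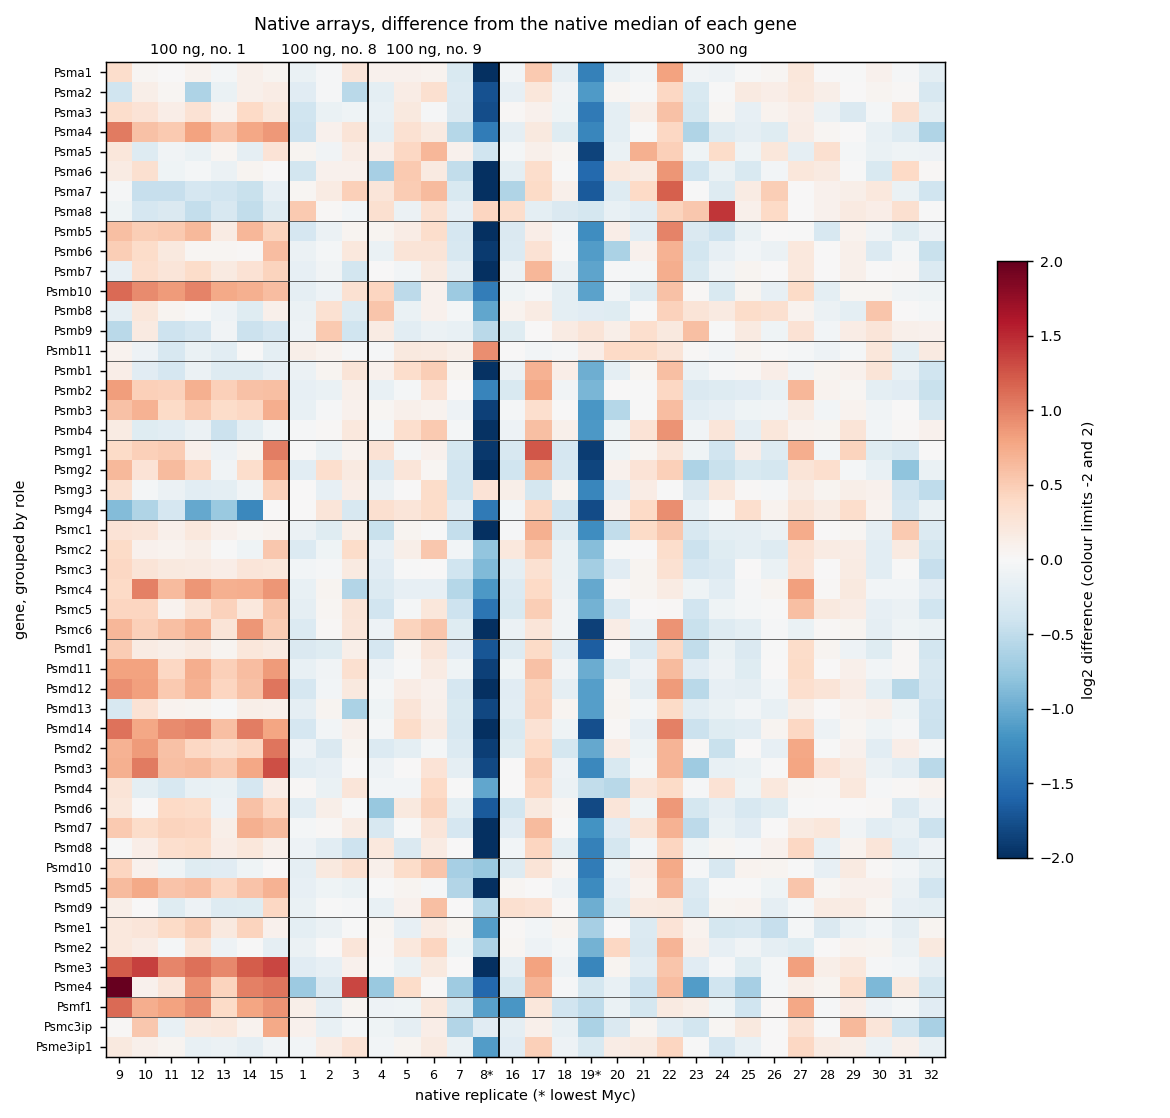
Log2 difference of each member (rows, grouped by role) from its median over native arrays, in each native array (columns, by set; * marks the 2 arrays of lowest Myc). Replicates 8 and 19 were low in nearly all core and cap genes, and replicates 9 to 15, whose lymphoma numbers start with 1, were high in Psme3, Psmd14, Psmb10 and Psmf1.

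In native and treated arrays alike, the deposited values of many proteasome RNAs were higher in numbers starting 1 than in 8 or 9. With quantile normalization 32% of members and 31.3% of all genes were higher, and 24% and 14% were lower. This comparison was added after the values were seen. Psme3 ran from 12.58 through a median of 12.83 to 12.99 in the 7 native arrays of numbers starting 1, and its highest value in the native 100 ng arrays of numbers starting 8 and 9 was 11.71 and 11.82. In the 6 treated arrays it ran from 12.35 through 12.67 to 12.83, against highest values of 11.62 and 12.49. The native arrays did not overlap, while the lowest treated array of numbers starting 1 lay below the highest treated array of numbers starting 9. The fitted difference over 13 and 31 arrays at 100 ng was 1.34 ± 0.15 (adjusted p = 3.53e-10 in limma).

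At the threshold, 30 of 50 members were higher in numbers starting 1 and 3 were lower, where 29.9% of all genes were higher and 29.4% lower in limma (59.3% either way), so the sets differed in most of the genome. The median member was 0.40 higher and the median gene at -0.02, while with quantile normalization they were at 0.03 and 0.08. All 3 constitutive catalytic genes were higher (Psmb5 by 0.66, Psmb6 by 0.38, Psmb7 by 0.45), as were 5 of 6 ATPases, 9 of 11 non-ATPase subunits, 3 of 4 caps and the inhibitor Psmf1 (1.07 ± 0.13). Of the alpha ring only 2 of 8 were higher, among them Psma4 (0.95 ± 0.12). Psma8 (-0.41), Psmb11 (-0.27) and the chaperone Psmg4 (-0.64 ± 0.15) were lower.

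The immune subunits again went separate ways. Psmb10 ran from 10.61 to 11.12 in the native and from 10.53 to 11.16 in the treated arrays of numbers starting 1, above all the other 100 ng arrays, whose highest values were 10.42 (native) and 10.32 (treated). Its difference was 1.04 ± 0.11 (adjusted p = 1.05e-10 in limma). Psmb8 (0.12 ± 0.11, adjusted p = 0.348) and Psmb9 (-0.11 ± 0.11, adjusted p = 0.364) did not pass in limma. With a common median Psmb8 passed as higher (0.31 ± 0.13, adjusted p = 0.0349 in limma). Array scaling changed much of this list. With quantile normalization 16 members were higher and 12 lower (31.3% and 14% of genes, 45.4% either way), Psmb8 (-0.30) and Psmb9 (-0.50) were among the lower ones, and Psmb6 (-0.03) and Psmb7 (0.04) no longer passed. Higher under the deposited, common-median and quantile scaling were 16 members: Psma4, Psmb2, Psmb3, Psmb5, Psmb10, Psmc3ip, Psmc4, Psmd2, Psmd3, Psmd5, Psmd11, Psmd12, Psmd14, Psme3, Psme4 and Psmf1. Lower under all 3 was Psmg4. The share of all genes higher or lower under all 3 scalings was not computed, so these counts have no background to be read against.

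Myc and the marker lists were compared between the same sets, where 29.9% of all genes were higher and 29.4% lower. Log2 Myc had a fitted difference of 0.45 ± 0.12 (adjusted p = 0.00173 in limma), 5 of 7 B-cell markers were higher and 0 lower, 1 of 9 T-cell markers was higher, and of 11 macrophage markers 2 were higher and 1 lower. The mean score of 51 small nucleolar RNA genes separated the sets wholly, at -1.65 to -0.96 in the 13 arrays of numbers starting 1 and -0.82 to 1.31 in the other 50. With that score as a term, 29 members were higher and 1 lower, against 12.7% and 6.5% of genes, and 0 of 7 B-cell markers were higher. The members' median difference went from 0.40 to 0.76. Since the score did not overlap between the sets, this fit cannot separate the score from the set, and no conclusion is drawn from it. The part of cell content in the difference was not tested.

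Most constitutive subunits varied together from array to array, and among the immune subunits Psmb10 had the highest correlation with Psmb5. Each correlation was taken over arrays as a description. Over native arrays the median pairwise r among 31 constitutive core and cap subunits was 0.81, and it was 0.56 without the 2 low-Myc arrays and 0.63 over treated arrays. To set aside the differences between sets, each value was also taken as the deviation from the mean of its set and group, without the 2 low-Myc arrays. Psmc6 then correlated with Psmb5 at r of 0.90 over 30 native and 0.82 over 31 treated arrays, and Psmd14 at 0.87 and 0.82. For the immune subunits the r with Psmb5 was 0.62 and 0.66 for Psmb10, 0.16 and 0.27 for Psmb8, and -0.05 and 0.02 for Psmb9. All genes of an array share its RNA, labelling and scaling, and differences between these correlations were not tested.

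**Figure D5:**
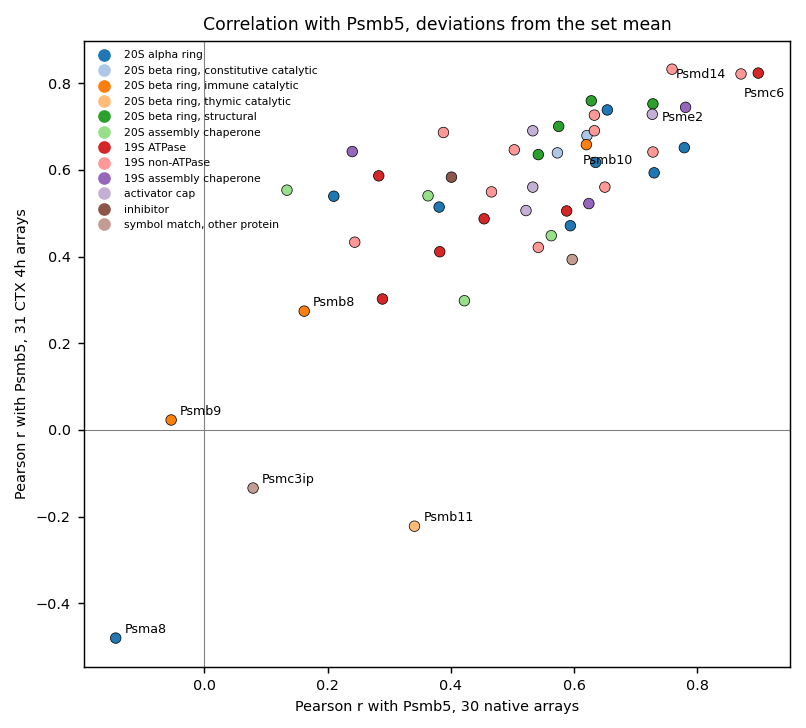
Pearson r of each member with Psmb5 over 30 native arrays (x axis) and over 31 treated arrays (y axis), on deviations from the mean of each set, coloured by role. Psmb10 lay among the constitutive genes at 0.62 and 0.66, while Psmb8 (0.16 and 0.27) and Psmb9 (-0.05 and 0.02) lay nearer to 0.

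Relations across arrays were tested for 44 pairings, 22 in each group, with two-sided permutation tests, p-values adjusted over all of them. Psmb10 correlated with Psmb7 over 32 native arrays (r = 0.696, permutation p = 3e-05, adjusted p = 0.00022; rho = 0.621, permutation p = 0.00018, adjusted p = 0.00113) and over 31 treated arrays (r = 0.633, permutation p = 0.00019, adjusted p = 0.000836; rho = 0.611, permutation p = 0.00041, adjusted p = 0.00225). Without the 2 arrays farthest from the median r was 0.691 and 0.664, and within native arrays it was 0.739 at 100 ng and 0.816 at 300 ng. On deviations from the set means r was 0.719 and 0.521, and without the low-Myc arrays 0.311 in native arrays (adjusted p = 0.178, permutation). In native arrays without the low-Myc pair, sets not set aside, it was 0.467 (adjusted p = 0.0268, permutation), and in treated arrays the value on set deviations passed (adjusted p = 0.0391, permutation). With quantile normalization r was 0.241 and -0.022 (adjusted p = 0.344 and 0.967, permutation).

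Psmb8 correlated with Psmb9 over native arrays (r = 0.524, permutation p = 0.00175, adjusted p = 0.00592; rho = 0.449, permutation p = 0.0105, adjusted p = 0.033) and over treated arrays (r = 0.536, permutation p = 0.0026, adjusted p = 0.00817; rho = 0.526, permutation p = 0.00305, adjusted p = 0.0103). Without the 2 farthest arrays r was 0.424 (adjusted p = 0.0537, permutation) and 0.564. Within native arrays it was 0.691 at 100 ng but 0.109 at 300 ng, so it was not found in the 17 native arrays at 300 ng. On deviations from the set means r was 0.524 in native and 0.573 in treated arrays, and with quantile normalization it was 0.704 and 0.638.

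The PA28 genes Psme1 and Psme2, neighbours on their chromosome, had the closest relation of the treated arrays (r = 0.795, permutation p = 1e-05, the smallest 100000 permutations can give, adjusted p = 0.00011; rho = 0.814, permutation p = 1e-05, adjusted p = 0.000147). Over native arrays r was 0.679 (permutation p = 0.00012, adjusted p = 0.000587) and rho was 0.551 (permutation p = 0.00142, adjusted p = 0.00625). Without the 2 farthest arrays r was 0.79 and 0.456, on deviations from the set means 0.823 and 0.78, and without the low-Myc arrays 0.627 in native arrays. With quantile normalization it was 0.638 and 0.483.

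Psmb8 with Psmb5 reached r = 0.499 over native arrays (permutation p = 0.00977, adjusted p = 0.0287; rho = 0.073, permutation p = 0.691, adjusted p = 0.926). Without the low-Myc pair r was 0.00 (adjusted p = 0.998, permutation), so the relation was not found without those arrays. It was 0.135 without the 2 arrays farthest from the median of Psmb8, and 0.288 over treated arrays. With quantile normalization the native relation passed with the opposite sign (r = -0.471, adjusted p = 0.0196; rho = -0.639, adjusted p = 0.000953, permutation). Psmb9 with Psmb6 had r of -0.009 over native and 0.087 over treated arrays (adjusted p = 0.992 and 0.86, permutation). Neither Irf1, an interferon-responsive activator of these genes, nor the T-cell gene Cd3e nor the macrophage gene Csf1r correlated with Psmb8, Psmb9 or Psmb10 past the threshold over all arrays of either group. In the 15 native arrays at 100 ng, Psmb10 passed with Irf1 (r = 0.654, adjusted p = 0.0236, permutation) and Csf1r (r = 0.733, adjusted p = 0.00787, permutation). In the 17 native arrays at 300 ng these r were -0.352 and -0.345 (both adjusted p = 0.315, permutation). Without the 2 arrays farthest from the median of Irf1 or Csf1r, they were 0.203 (adjusted p = 0.526) and 0.52 (adjusted p = 0.0108, permutation). Without the 2 low-Myc arrays, Psmb10 had r = 0.55 with Irf1 (adjusted p = 0.00543, permutation) and 0.586 with Csf1r (adjusted p = 0.00363, permutation) over 30 native arrays, and on deviations from the set means these were 0.388 (adjusted p = 0.168) and 0.315 (adjusted p = 0.178).

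Relations of Myc with the 6 catalytic genes were added after the values were seen. Over native arrays r was 0.816 for Psmb5, 0.816 for Psmb6, 0.829 for Psmb7 and 0.675 for Psmb10 (adjusted p from 0.00011 to 0.000587, permutation), and 0.403 for Psmb8 (adjusted p = 0.103) and -0.158 for Psmb9 (adjusted p = 0.621). The rho values were 0.699, 0.703, 0.716, 0.529, 0.042 and -0.443 in the same genes, Psmb5, Psmb6, Psmb7, Psmb10, Psmb8 and Psmb9, with adjusted p of 0.00022, 0.000147, 0.000352, 0.00785, 0.926 and 0.0343 by permutation. Over treated arrays, none of which had low Myc, r was 0.726 for Psmb5, 0.594 for Psmb6, 0.731 for Psmb7 and 0.603 for Psmb10 (adjusted p from 0.00011 to 0.00136, permutation), and rho was 0.695, 0.577, 0.712 and 0.552 (adjusted p from 0.000147 to 0.00672, permutation).

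These correlations were smaller once sets and low-Myc arrays were set aside. On deviations from the set means and without those arrays, native r was 0.403 for Psmb5 (adjusted p = 0.168, permutation), 0.565 for Psmb6 (adjusted p = 0.0223), 0.613 for Psmb7 (adjusted p = 0.0173) and 0.084 for Psmb10 (adjusted p = 0.785). In treated arrays it was 0.556, 0.432, 0.613 and 0.401, with adjusted p of 0.0157, 0.0746, 0.005 and 0.126 by permutation. For Psmb9 the same setting gave -0.404 in native arrays (adjusted p = 0.0741, permutation) and -0.368 in treated arrays (adjusted p = 0.0442, permutation), beside -0.288 in treated arrays as deposited (adjusted p = 0.245). With quantile normalization Myc with Psmb7 no longer passed in native arrays (0.617, adjusted p = 0.0637, permutation), nor with Psmb6 (0.293, adjusted p = 0.222) and Psmb10 (0.399, adjusted p = 0.0688) in treated arrays. With that scaling Myc had a negative r past the threshold with Psmb9 in native (-0.656, adjusted p = 0.00044, permutation) and treated arrays (-0.549, adjusted p = 0.00699), and with Psmb8 in treated arrays (-0.609, adjusted p = 0.00239).

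No helper of the proteasome passed the test for treatment either. Of 28 listed helpers and suppliers of ubiquitin, 20 were measured and 0 passed in either direction in limma, with 3 at an unadjusted p under 0.05. The smallest p were those of Uba6, a ubiquitin-activating enzyme (-0.38 ± 0.12, adjusted p = 0.0662 in limma), Sem1, the small lid subunit DSS1 (0.38 ± 0.12, adjusted p = 0.0721), and Akirin2, which carries proteasomes into the nucleus (-0.18 ± 0.07, adjusted p = 0.157). Of 14 genes of MHC class I processing, 11 were measured and 0 passed, also at an unadjusted p under 0.05, with Nlrc5, the transactivator of class I genes, at 0.19 ± 0.11 (adjusted p = 0.329 in limma) and Tap1 at 0.16 ± 0.11 (adjusted p = 0.484). In native replicates 8 and 19, 10 of the 20 helpers were below all the other arrays. The share of all genes for this was not computed, so the count has no background. By the looser measure of the 2 lowest native arrays, the share of all genes was 17.9%. Pomp, the chaperone that completes the core, read 7.94 and 8.09 there and at least 9.11 in the other arrays, and Usp14, a deubiquitinase of the cap, 8.55 and 8.56 against at least 9.93.

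Markers of other cells did change with treatment. Of 11 macrophage markers 2 were higher in treated lymphomas (Cd14 by 0.96 ± 0.14 and Fcgr1 by 0.51 ± 0.12) and 0 lower, and of 8 stromal and endothelial markers 4 were higher (Col1a1, Col1a2, Col3a1 and Sparc) and 0 lower in limma. The mean level of the macrophage list ran from 8.47 to 9.53 in native and from 8.16 to 10.35 in treated arrays. Of 9 T-cell and 7 B-cell markers 0 passed in limma, with 0 and 1 at an unadjusted p under 0.05. Their part in the members' values was not tested. With macrophage and T-cell scores as terms, 0 of 50 members passed and 8 were positive.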

How the data were processed

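Total RNA was hybridised to 63 Affymetrix arrays (31 CTX 4h, 32 native). The deposited values are log2 expression values per probe set, which the authors made with RMA in Partek 6.5, per the submitters' processing notes. Of 35557 probe sets, 21789 carry 1 symbol, 1621 several and 12147 none. The single-symbol probe set of highest mean stood for each of 19938 genes. Differences were fitted over all genes with limma 3.58.1 (R 4.3.3), with treatment and RNA input as terms and Benjamini-Hochberg adjustment at 0.05. Correlations and within-array differences used two-sided permutation tests (100000 draws, scipy 1.17.1). On simulated data with these arrays' design, limma called 81 of 100 genes changed by 0.5, 98 of 100 changed by 1 and 2 of 19738 unchanged ones. The changed genes were drawn at random from all genes, with noise independent between genes and no difference by first digit. The members had a larger median native SD (0.50 against 0.32), so these rates need not hold for them.

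Members and gene lists were chosen with earlier results of these data known. Named are members past the threshold (at most 12 each way), Psmb5 to Psmb10, Psme1, Psme2, the 5 largest and 5 smallest native SDs, the largest and smallest difference of each role, members whose call differs by setting, and up to 3 genes of smallest p in each other list. Others are named by the text where chosen after their values were seen: those of the comparison by lymphoma number, and Tap1, B2m, Erap1, Canx, Pdia3, Pomp and Usp14. Irf1, Csf1r and Cd3e were fixed for the relations. The comparison by lymphoma number, the relations with Myc and the deviations from set means were added after seeing the data. Alternatives covered scaling, probe sets, filters, weights, extra terms and left-out arrays. The number of arrays limits the precision. Protein sequences were not used here.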

Additional observations from a re-analysis of the deposited data

How the results depend on the processing

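Of the counts and tests reported, the count of members changed by treatment moved most: from 0 it became 21 with array weights, 2 without both low-Myc native arrays, 1 with the first digit as a term and array weights, and 0 to 1 with each array left out in turn. For RNA input it became 1 with quantile normalization. For numbers starting 1, it was 20 of 50 in native arrays alone, against 33, while the share of all genes there was 19.7% higher and 13.8% lower. The count of native relations past the threshold was 3 of 22 on deviations from the set mean without the low-Myc arrays, adjusted over those 22, against 8 of 22 adjusted over 44. The members' median native SD was 0.31 without those arrays and 0.35 with quantile normalization. The other 105 recomputed values of these results kept their side of the threshold or stayed within 1.5 times the count, and of the single genes and relations 217 did so too. This tally joins both directions and so hides a change of direction. For numbers starting 1, quantile normalization gave 16 members higher and 12 lower, against 30 and 3, and it was still tallied as kept. Many of the values come from the 63 fits that left out 1 array each.

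Several treatment differences changed sign, none passing the test, most of them near 0 and those of Psmb10 and Psme3 from the largest of their groups. With the first digit as a term, Psmb5 was at 0.007, Psmb6 at 0.076, Psmb7 at 0.076, Psme1 at 0.061 and Psme2 at 0.001. With a small nucleolar RNA score as a term, Psmb5 was at 0.03, Psmb6 at 0.054, Psmb7 at 0.086, Psmb8 at -0.009, Psmb9 at -0.022, Psmb10 at 0.11, Psme1 at 0.099 and Psme3 at 0.145. With no RNA input term, Psmb6 was at 0.083, Psmb8 at -0.048, Psmb9 at -0.072, Psme1 at 0.06 and Psme2 at 0.009. With quantile normalization, Psmb6 was at 0.056, Psmb7 at 0.059, Psme1 at 0.011 and Psme2 at 0.006. At 100 ng alone, Psmb6 was at 0.047 and Psmb7 at 0.04, and at 300 ng alone Psmb8 was at -0.033 and Psmb9 at -0.292. Psmb8 was at -0.02 with a common median, -0.057 with array weights, -0.052 without the low-Myc arrays, -0.096 with macrophage and T-cell scores, -0.035 with the first digit and without the low-Myc arrays, and -0.032 with the first digit and array weights. Psmb9 was at -0.01 with array weights and at -0.016 in both settings that joined the first digit to another choice. Psmb9 minus Psmb6 was -0.06 within RNA input and first digit.

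Among correlations, Psmb8 with Psmb5 was -0.471 in native and -0.355 in treated arrays with quantile normalization, the native one past the threshold, and 0.00 in native arrays without the low-Myc pair. Psmb9 with Psmb6 in native arrays was 0.15 at 100 ng, 0.117 without the farthest 2 and 0.144 on set deviations. Myc with Psmb8 in native arrays was -0.408 with quantile normalization, -0.201 without the farthest 2 and without the low-Myc pair, and -0.185 on set deviations without them, and Myc with Psmb9 was 0.026 at 100 ng. Psmb10 with Psmb7 was -0.022 in treated arrays with quantile normalization. The cause was not tested. No paired analysis was possible because the labels tie no array of one group to an array of the other, and replicate numbers follow accession order only. Array number and signal over background, which the deposited values do not give, limit what could be seen in dim genes such as Psma8 and Psmb11.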
